A study of Homo sapiens with 6 samples.

Results

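The genes described are those of the proteasome, its activators and its dedicated assembly chaperones, taken as every row of the deposited table whose symbol is PSM, a letter from A to G and a number. The rule found 48 of the 61806 rows. They were followed in HCT116, an established line of human colorectal carcinoma cells. The titles name 3 libraries si-NC and 3 libraries si-STRIP2, and the labels give the genotype of the first as wildtype and of the second as STRIP2 knockdown, read here as a control siRNA and an siRNA directed at STRIP2. STRIP2 encodes a scaffold protein of the STRIPAK phosphatase and kinase complex. Both groups are the same line and both received an siRNA, a short RNA duplex that guides the cutting of a matching transcript; the labels name no other agent, no time of treatment and no sequence of either RNA. Poly(A) RNA was sequenced from strand-marking libraries. The labels do not say whether replicates of a group were grown as separate cultures, so each p below measures the spread between these libraries, which may be technical.

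The proteasome is the cell's main ATP-driven protease for proteins tagged with ubiquitin. Its 20S core is a barrel of alpha rings, which gate the entry, and beta rings, which hold the catalytic sites. The 19S regulatory particle caps the barrel: its base unfolds substrates with a ring of ATPases and its lid removes ubiquitin. Interferon-inducible catalytic subunits can take the place of the constitutive ones and change the peptides that are made for HLA class I molecules. When proteasome activity falls short, the transcription factor NFE2L1 is known to raise the transcription of proteasome genes through antioxidant response elements.

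Levels are given in FPKM, fragment counts scaled by the exonic length of the gene and the total of the library. STRIP2 (ENSG00000128578, chromosome 7, 129434432 to 129488399, plus strand) had 3.19, 3.77 and 3.81 FPKM in si-NC libraries 1 to 3 and 2.71, 2.53 and 2.58 FPKM in si-STRIP2 libraries 1 to 3. The groups did not overlap, and the log2 fold change of si-STRIP2 over si-NC was -0.46 ± 0.083 (SE; edgeR adjusted p = 1.62e-05). LCN2, the secreted iron-carrier protein that the series title names, had 6.29, 6.44 and 6.34 FPKM in si-NC and 0.57, 0.32 and 0.40 FPKM in si-STRIP2 (log2 fold change -3.87, edgeR adjusted p = 2.70e-18). Total counts ran from 17184963 to 21721218 a library. The 8 epithelial markers summed to 691 to 721 FPKM in si-NC and 668 to 691 FPKM in si-STRIP2, with VIL1 and KRT20 under 1 FPKM in every library. The 5 leukocyte markers, which matter for immunoproteasome genes, summed to 0.27 to 0.57 FPKM in si-NC and 0.27 to 0.41 FPKM in si-STRIP2. The 5 fibroblast markers summed to at most 2.61 FPKM, with DCN and COL1A2 listed at 0, and the 4 endothelial markers to at most 0.46 FPKM. Library si-NC 3 stood apart for these genes: after TMM scaling it was the lowest control for 36 of the 45 tested proteasome genes, and it had the largest mitochondrial share of counts, 8.88% against 7.28% and 4.88% in si-NC 1 and 2 and 5.73% to 6.30% in si-STRIP2.

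Most proteasome genes were somewhat higher in si-STRIP2 cells. Of 48 genes, 45 passed the filter on low counts. Genes were called at an edgeR adjusted p under 0.05. By that rule 26 of the 45 (57.8%) were higher in si-STRIP2, where 27.8% of all 15687 tested genes were. Another 5 (11.1%) were lower, where 27.0% of all tested genes were, and 14 were not called. The median log2 fold change was 0.15 over the 45 genes and 0.014 over all tested genes, and 36 of the 45 had a positive value. The differences were small. Against a margin of 1.2-fold (edgeR's glmTreat), 1 gene was higher (PSMC3, adjusted p = 2.07e-06) and 1 was lower (PSME3, adjusted p = 0.034), while 11.3% of all tested genes were higher and 12.4% lower by that margin. In FPKM, every si-STRIP2 library lay above every si-NC library for 27 of the 45 genes (30.0% of all tested genes) and below for 5 (28.7% of all tested genes). In bulk RNA a smaller number of cells with a transcript and less transcript per cell cannot be told apart.

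**Figure D1:**
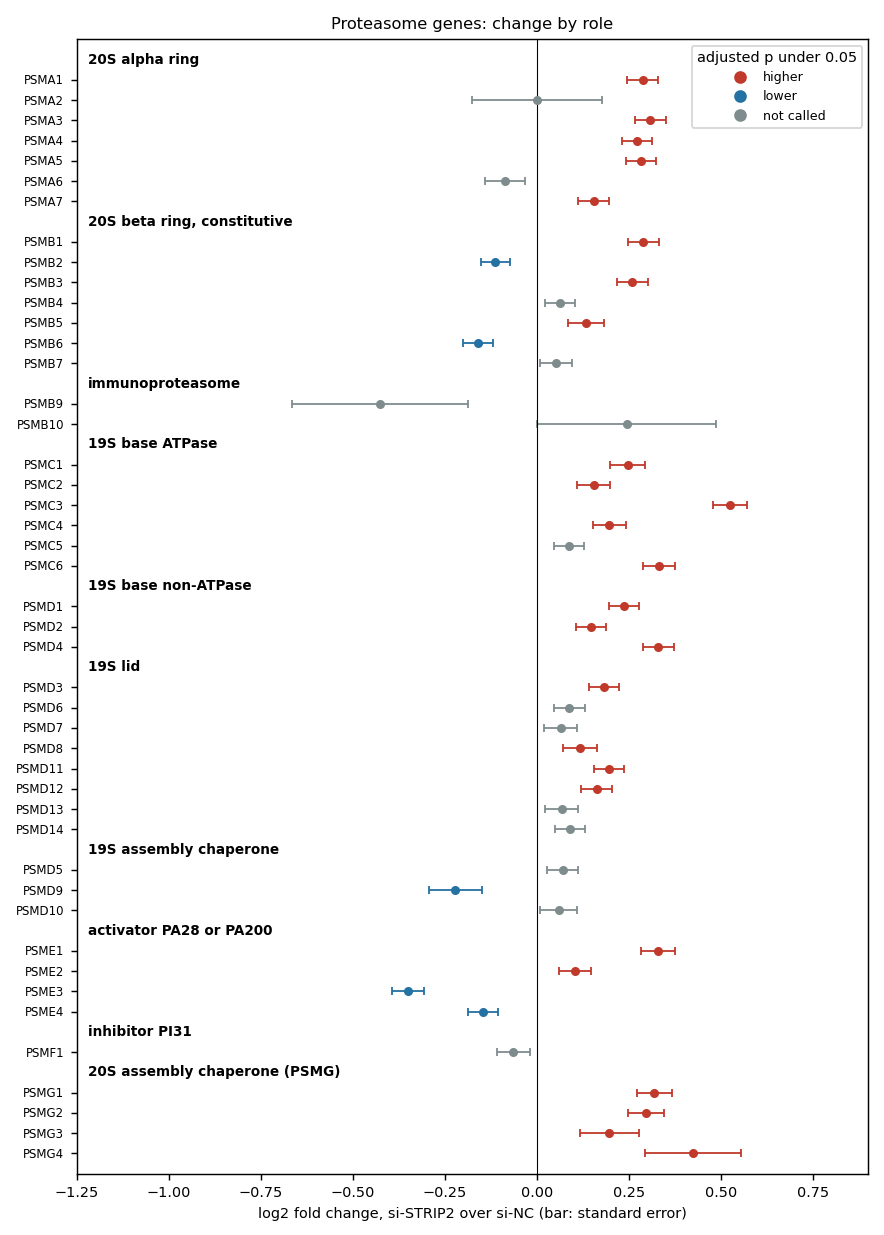
Log2 fold change of si-STRIP2 over si-NC (x axis) with its standard error for each of the 45 tested proteasome genes, grouped by role (y axis), with colour for the edgeR call. PSMC3 has the highest value, 0.52, and the 4 PSMG genes and all 17 genes of the 19S regulatory particle sit to the right of 0.

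As a share of each library, the counts of the 48 genes made up 0.549%, 0.559% and 0.520% of the totals in si-NC 1 to 3. The shares were 0.597%, 0.602% and 0.599% in si-STRIP2 1 to 3. The groups did not overlap, the means were 0.542% ± 0.0206 and 0.599% ± 0.00258 (SD, n = 3 each), and the lowest share was that of si-NC 3. Without si-NC 3, 23 genes were called higher and 7 lower, and the median log2 fold change was 0.11. The calls of PSMB5, PSMD8 and PSME2 were lost in that fit, and PSMA6 (log2 fold change -0.13, edgeR adjusted p = 0.0474) and PSMB8 were called lower.

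The alpha ring of the 20S core moved upward in most of its members. Of 8 PSMA genes, 7 were tested and 5 were higher (71.4%, against 27.8% of all tested genes). None was lower (against 27.0%), and the median log2 fold change was 0.27. PSMA3 rose the most, from 39.6, 41.5 and 37.3 FPKM in si-NC to 48.7, 49.3 and 49.0 FPKM in si-STRIP2. Every si-STRIP2 library lay above every control, and the means were 39.5 ± 2.12 and 49.0 ± 0.325 FPKM (SD, n = 3; log2 fold change 0.31 ± 0.042 SE, edgeR adjusted p = 1.53e-07). PSMA1, PSMA4 and PSMA5 rose by a similar amount, with log2 fold changes of 0.29, 0.27 and 0.28. PSMA7, the most abundant of the ring in FPKM, rose less, from 94.2, 94.9 and 88.85 FPKM to 103.9, 106.3 and 99.7 FPKM (log2 fold change 0.15, edgeR adjusted p = 0.0019). PSMA6 was not called: 7.42, 7.48 and 6.82 FPKM in si-NC overlapped 6.72, 6.88 and 6.93 FPKM in si-STRIP2. PSMA8, the testis form of an alpha subunit, had 0 counts in all 6 libraries, which allows up to 3 counts in each.

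PSMA2 was listed far below the rest of its ring, at 0.33, 0.31 and 0.31 FPKM in si-NC and 0.31, 0.36 and 0.29 FPKM in si-STRIP2, which overlap. Its log2 fold change was -0.000058 ± 0.18 (SE; edgeR adjusted p = 1.00). The deposited exonic size of PSMA2 is 8378 bases, 5.63 times its principal transcript in GENCODE 29 (1487 bases), and 52.5% of that transcript is also exonic in another gene on the same strand. The overlapping row ENSG00000256646 had 57 counts over the 6 libraries beside 291 for PSMA2. PSMA6 has the same feature more strongly, with a size 6.32 times its principal transcript and 80.95% of that transcript shared with another gene on its strand. Scaled to the principal transcript in place of the deposited size, the si-NC level was 1.78 for PSMA2 and 45.8 for PSMA6. PSMA1 also shares 53.2% of its principal transcript with another gene on its strand, yet its mean in si-NC was 52.3 FPKM. How the counting treated reads in shared exons is not given in the sources used here, so levels of PSMA1, PSMA2 and PSMA6 are uncertain.

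**Figure D2:**
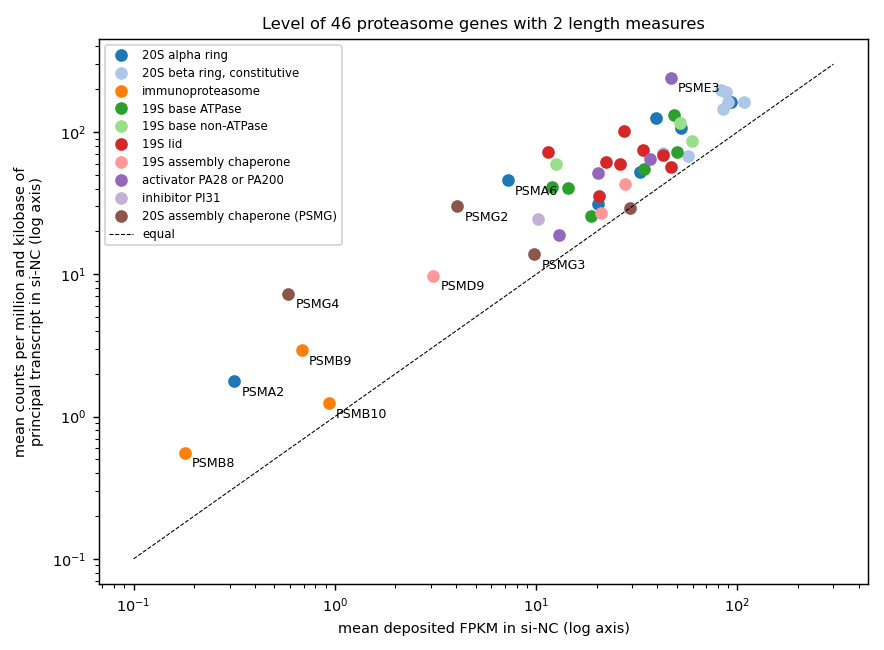
Mean level in si-NC of each proteasome gene by the deposited FPKM and by counts scaled to the principal transcript length, on log axes. PSMG4 and PSMG2 lie furthest above the line of equal values, and the 3 immunoproteasome genes stay among the lowest on both.

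The constitutive beta ring held subunits called in both directions. Of 7 genes, 3 were higher (42.9%, against 27.8% of all tested genes), 2 lower (28.6%, against 27.0%) and 2 not called, with a median log2 fold change of 0.062. Among the structural subunits, PSMB1 rose from 84.5, 85.9 and 77.9 FPKM to 100.9, 103.7 and 99.6 FPKM (82.8 ± 4.29 and 101.4 ± 2.12 FPKM, SD, n = 3; log2 fold change 0.29 ± 0.042 SE, edgeR adjusted p = 3.90e-07). PSMB3, the most abundant proteasome transcript in FPKM, rose from 113.3, 108.2 and 103.0 FPKM to 133.4, 129.6 and 126.5 FPKM (log2 fold change 0.26, edgeR adjusted p = 4.04e-06). In both genes the lowest si-STRIP2 library was above the highest control.

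The 3 catalytic subunits did not move in the same direction. PSMB6, which carries the caspase-like site, fell from 86.4, 87.1 and 81.6 FPKM to 76.3, 75.4 and 77.1 FPKM. All si-STRIP2 values were below all controls (85.0 ± 3.00 and 76.3 ± 0.851 FPKM, SD, n = 3; log2 fold change -0.16 ± 0.042 SE, edgeR adjusted p = 0.00156). PSMB5, the subunit with the chymotrypsin-like site, had 60.8, 54.8 and 55.1 FPKM in si-NC and 60.7, 65.95 and 61.4 FPKM in si-STRIP2. The FPKM of these groups overlap by a single library, and the call (log2 fold change 0.13, edgeR adjusted p = 0.0197) was lost under 7 of 16 alternatives, among them DESeq2 (adjusted p = 0.0669). PSMB7, with the trypsin-like site, was not called, at 90.2, 95.8 and 82.0 FPKM against 94.3, 92.2 and 91.9 FPKM (edgeR adjusted p = 0.333). Of the other structural subunits, PSMB2 fell from 43.3, 42.9 and 41.8 FPKM to 39.7, 39.1 and 39.8 FPKM (log2 fold change -0.11, edgeR adjusted p = 0.0154), a call lost without si-NC 1, si-STRIP2 1 or si-STRIP2 2. PSMB4 was not called (log2 fold change 0.063, edgeR adjusted p = 0.194).

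**Figure D3:**
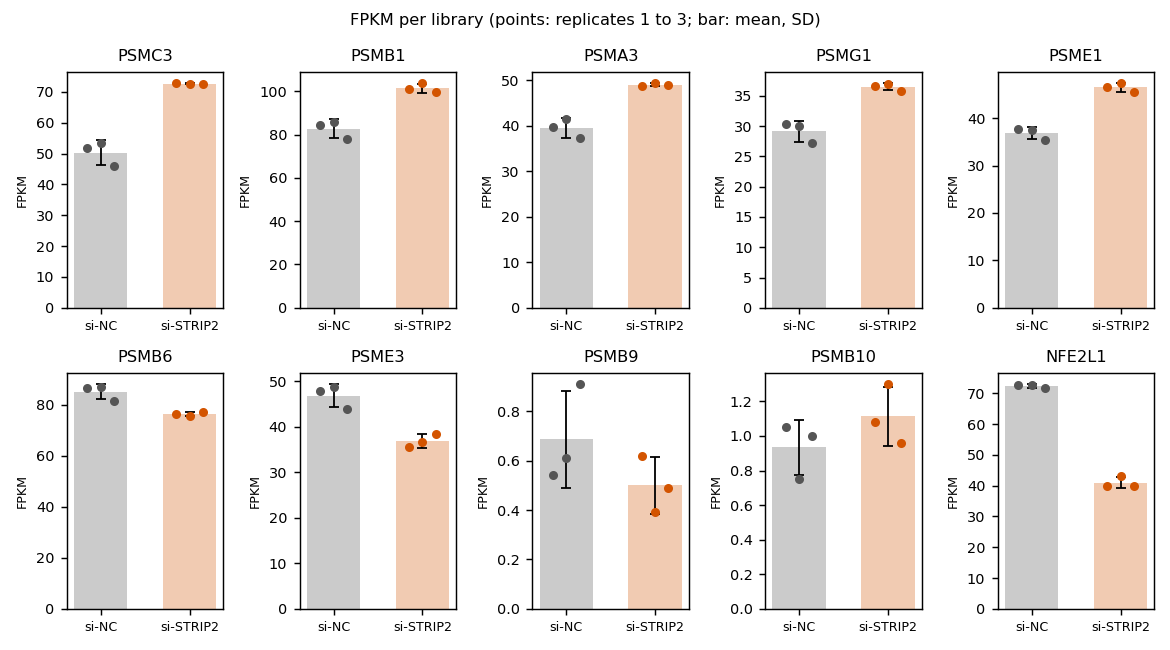
FPKM in each of the 6 libraries for PSMC3, PSME3 and other proteasome genes of contrasting behaviour, with a bar for the group mean. PSMC3 separates upward (72.5 to 72.8 against 45.8 to 53.3 FPKM), PSME3 separates downward, and PSMB9 and PSMB10 overlap.

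The interferon-inducible subunits PSMB8, PSMB9 and PSMB10, which replace PSMB5, PSMB6 and PSMB7 in the immunoproteasome, had few counts in both groups. PSMB8 had 18, 11 and 7 counts in si-NC and 4, 8 and 5 counts in si-STRIP2, and it did not pass the filter. The highest si-STRIP2 library lay above the lowest control. It was tested in 5 alternative fits, with log2 fold changes of -0.75 to -1.33, and was called lower in 2 of them, without si-NC 3 (-1.21 ± 0.47 SE, edgeR adjusted p = 0.0299) and without si-STRIP2 2 (-1.33 ± 0.53 SE, edgeR adjusted p = 0.0372). With no filter on low counts it was not called (-0.99 ± 0.46 SE, edgeR adjusted p = 0.113). PSMB9 had 39, 35 and 52 counts (0.54, 0.61 and 0.91 FPKM) in si-NC and 39, 23 and 28 counts (0.62, 0.39 and 0.49 FPKM) in si-STRIP2. PSMB10 had 37, 21 and 28 counts (1.05, 0.75 and 1.00 FPKM) in si-NC and 33, 37 and 27 counts (1.08, 1.30 and 0.96 FPKM) in si-STRIP2. Both overlapped between groups, and neither was called by edgeR (PSMB9 log2 fold change -0.42 ± 0.24 SE, adjusted p = 0.132; PSMB10 0.24 ± 0.24 SE, adjusted p = 0.409). Single libraries moved both values: PSMB9 was at -0.18 without si-NC 3 and -0.28 without si-STRIP2 2, and PSMB10 at 0.11 without si-NC 2 and 0.12 without si-STRIP2 2, with neither called in any alternative that tested it. PSMB10 also shares 45.3% of its principal transcript with a gene on the same strand, whose row ENSG00000261884 had 159 counts in all beside 183 for PSMB10. The principal transcripts of PSMB8 and PSMB9 share no base, but 20.6% of all exonic bases of PSMB8 are exonic on the opposite strand. For PSMB9 the share is 5.66% on its strand and 4.5% on the opposite strand. The row of PSMB9, with 216 counts in all, overlaps that of TAP1 on the opposite strand, with 2744. PSMB11, the thymus form, had 0 counts in all 6 libraries.

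Per library, the FPKM of PSMB8 was 0.395%, 0.329% and 0.218% of that of PSMB5 in si-NC and 0.0988%, 0.197% and 0.130% in si-STRIP2. The groups did not overlap (0.314% ± 0.0892 and 0.142% ± 0.0502, SD, n = 3), but the numerator rests on 4 to 18 counts. PSMB9 stood at 0.814% ± 0.264 of PSMB6 in the control libraries and at 0.655% ± 0.149 in si-STRIP2. For PSMB10 over PSMB7 the values were 1.06% ± 0.238 and 1.2% ± 0.188 (SD, n = 3). Both ratios overlapped between the groups. These are ratios of transcript levels per exonic length, given as a description with no test.

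Promoters of the proteasome genes were searched for the element through which interferon is known to act. The interferon-stimulated response element core, searched as GAAA, 2 free bases and GAAA on both strands, was found in 7 of 51 windows of the 42 proteasome genes that matched the RefSeq promoter table (13.7%), in 2.84% of the windows of tested genes and in 3.57% of all 35116 windows. Each window runs from 250 bases before to 50 bases after an annotated start. The genes were PSMA4, PSMB4, PSMB8, PSMB10, PSME1, PSME2 and PSMG4. PSMB9 was among the genes searched and had no match. The sites below are on the gene's strand, 5′ to 3′, with the core in capitals and 10 bases on either side, from RefSeq on GRCh38.p14. PSMB10 is at chr16:67936852-67936881 (minus strand), PSMB8 at chr6:32844032-32844061 (minus), PSME2 at chr14:24146619-24146648 (minus), PSME1 at chr14:24136189-24136218 (plus) and PSMG4 at chr6:3258904-3258933 (plus).
PSMB10: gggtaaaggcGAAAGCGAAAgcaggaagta
PSME2: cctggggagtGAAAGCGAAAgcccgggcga
PSMG4: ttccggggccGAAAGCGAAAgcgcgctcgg
PSMB8: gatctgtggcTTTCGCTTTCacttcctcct
PSME1: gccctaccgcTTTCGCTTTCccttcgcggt
PSMB10, PSME2 and PSMG4 hold the same 10 bases, and PSMB8 and PSME1 hold their reverse complement. Of these genes, PSME1, PSME2 and PSMG4 were called higher, PSMB10 was not called and PSMB8 did not pass the filter. The PSME2 call was lost under 12 of 16 alternatives. PSMA4, which was called higher, and PSMB4, which was not called, hold cores with other free bases and are not shown. In all, 4 of the 7 genes with the element were called higher, where 57.8% of the tested proteasome genes and 27.8% of all tested genes were. A match is a description of the letters and not evidence of binding.

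The 19S base rose nearly as a whole. Of its 9 genes, 8 were higher (88.9%, against 27.8% of all tested genes) and none was lower (against 27.0%). The median log2 fold change was 0.24. Among the 6 ATPases, PSMC3 rose the most of any proteasome gene (ENSG00000165916, chromosome 11, 47418769 to 47426473, minus strand). It had 51.9, 53.3 and 45.8 FPKM in si-NC and 72.8, 72.55 and 72.5 FPKM in si-STRIP2. The 3 si-STRIP2 libraries were nearly equal and lay far above the highest control. The means were 50.35 ± 3.97 and 72.6 ± 0.185 FPKM (SD, n = 3), a fold of 1.44 (log2 fold change 0.52 ± 0.045 SE, edgeR adjusted p = 7.08e-12), and the log2 value stayed between 0.46 and 0.56 over 16 alternatives, with 0.46 without si-NC 3. PSMC6 rose from 12.3, 12.2 and 11.65 FPKM to 15.5, 14.7 and 15.4 FPKM (log2 fold change 0.33, edgeR adjusted p = 5.16e-08). PSMC1, PSMC2 and PSMC4 rose by 0.25, 0.15 and 0.20 on the log2 scale. PSMC5 was not called, with 47.8, 50.6 and 46.4 FPKM against 50.5, 51.5 and 52.2 FPKM, which overlap at a single pair of libraries (log2 fold change 0.088, edgeR adjusted p = 0.0666). PSMC1 is less certain than the rest: 82.2% of its principal transcript is exonic on the opposite strand, where NRDE2 lies, and its 13 named pseudogenes together held 3.04% as many counts.

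The 250 bases before the PSMC3 start are shown as the promoter of the gene with the largest rise, and those before the PSME3 start (below) as the promoter of the gene with the largest fall among those called. They are at chr11:47426440-47426689 (minus strand) and chr17:42833147-42833396 (plus strand), from RefSeq on GRCh38.p14, on the gene's strand, 5′ to 3′. Capitals mark a CCAAT match in PSMC3, and in PSME3 a match to TTCNNNGAA, the gamma interferon activation site, and a CCAAT match on the opposite strand.
PSMC3: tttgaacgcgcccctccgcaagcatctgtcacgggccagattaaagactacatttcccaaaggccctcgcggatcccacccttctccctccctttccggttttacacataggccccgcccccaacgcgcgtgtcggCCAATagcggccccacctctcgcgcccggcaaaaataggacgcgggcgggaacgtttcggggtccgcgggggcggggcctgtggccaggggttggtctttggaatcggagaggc
PSME3: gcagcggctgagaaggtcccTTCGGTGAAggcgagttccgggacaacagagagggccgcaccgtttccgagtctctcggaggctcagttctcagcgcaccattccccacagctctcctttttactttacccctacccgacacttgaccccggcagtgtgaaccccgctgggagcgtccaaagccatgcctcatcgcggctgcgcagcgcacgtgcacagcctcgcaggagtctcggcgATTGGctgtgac
CCAAT was found in 39.2% of the proteasome windows and 34.7% of the windows of tested genes, and TTCNNNGAA in 15.7% and 6.09%. Neither window held TGACNNNGC, the antioxidant response element core, in either direction, and no match of one of the 4 motifs overlapped a match of another in any proteasome window.

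The 3 base subunits without ATPase activity all rose (against 27.8% of all tested genes). PSMD4, a receptor for ubiquitin chains, rose from 51.8, 53.8 and 49.4 FPKM to 63.35, 66.1 and 65.8 FPKM (log2 fold change 0.33 ± 0.041 SE, edgeR adjusted p = 2.77e-08). The large scaffold subunit PSMD2 rose least of the 3, from 59.7, 61.3 and 58.5 FPKM to 63.45, 67.35 and 68.4 FPKM (log2 fold change 0.15, edgeR adjusted p = 0.00276). PSMD1 rose by 0.24 on the log2 scale. In all 3 genes every si-STRIP2 library lay above every control, as in 30.0% of all tested genes.

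The lid had a lower median change than the base. Of 8 lid genes, 4 (PSMD3, PSMD8, PSMD11 and PSMD12) were higher (50.0%, against 27.8% of all tested genes). None was lower (against 27.0%) and 4 were not called, with a median log2 fold change of 0.10. The difference between lid and base was not tested. The PSMD8 call was lost under 8 of 16 alternatives, among them DESeq2 (adjusted p = 0.0839). PSMD11 rose from 21.1, 21.2 and 19.5 FPKM to 23.9, 23.3 and 23.8 FPKM, with no overlap (log2 fold change 0.20, edgeR adjusted p = 1.49e-04). PSMD7 had the smallest value of the lid, 42.0, 44.5 and 41.5 FPKM against 43.2, 48.0 and 43.0 FPKM, which overlap (log2 fold change 0.065, edgeR adjusted p = 0.226). PSMD14, the deubiquitinase that cuts ubiquitin chains from the substrate, was also not called (log2 fold change 0.089, edgeR adjusted p = 0.0618).

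None of the 3 chaperones of the 19S base that the name rule covers was called higher (against 27.8% of all tested genes). PAAF1, which binds the base ATPases and lies outside that rule, was called higher (log2 fold change 0.39, edgeR adjusted p = 7.01e-04). PSMD5 and PSMD10 were not called (log2 fold changes of 0.070 and 0.059). PSMD9 fell from 3.25, 3.05 and 2.96 FPKM to 2.85, 2.74 and 2.38 FPKM, with no overlap (log2 fold change -0.22 ± 0.073 SE, edgeR adjusted p = 0.0102). Its call was lost with limma on log2(FPKM + 1) and without si-NC 1 or si-STRIP2 3, and 43.8% of its principal transcript lies in another gene on its strand.

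All 4 PSMG genes, whose products pair up to build the alpha ring, rose (against 27.8% of all tested genes). Their median log2 fold change was 0.31. PSMG1 rose from 30.3, 30.0 and 27.2 FPKM to 36.7, 36.95 and 35.8 FPKM (29.2 ± 1.71 and 36.5 ± 0.605 FPKM, SD, n = 3; log2 fold change 0.32 ± 0.048 SE, edgeR adjusted p = 7.65e-07). PSMG2, its partner, rose from 4.08, 4.02 and 4.10 FPKM to 5.08, 4.91 and 5.03 FPKM (log2 fold change 0.30, edgeR adjusted p = 2.81e-06). Neither gene's groups overlapped, and all 3 si-STRIP2 libraries of each lay close together. PSMG3 had 10.2, 8.96 and 10.1 FPKM in si-NC and 12.25, 11.2 and 10.2 FPKM in si-STRIP2 (log2 fold change 0.20, edgeR adjusted p = 0.0366). PSMG4, its partner, had 0.61, 0.46 and 0.69 FPKM in si-NC and 0.85, 0.79 and 0.74 FPKM in si-STRIP2 (log2 fold change 0.42 ± 0.13 SE, edgeR adjusted p = 0.00607). These groups are close without overlapping: the PSMG3 call was lost under 9 of 16 alternatives and the PSMG4 call without si-NC 2 (edgeR adjusted p = 0.0757). POMP, the chaperone of the beta ring that the name rule does not cover, was not called (30.6, 30.7 and 27.8 FPKM against 30.45, 30.8 and 31.0 FPKM; log2 fold change 0.046, edgeR adjusted p = 0.38).

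The activators went in opposite directions. PSME1 and PSME2 are the subunits of PA28, the cytosolic activator that interferon induces. PSME1 rose from 37.8, 37.4 and 35.5 FPKM to 46.6, 47.3 and 45.5 FPKM (36.9 ± 1.23 and 46.5 ± 0.890 FPKM, SD, n = 3; log2 fold change 0.33 ± 0.045 SE, edgeR adjusted p = 1.63e-07). PSME2 had 20.4, 20.4 and 19.9 FPKM in si-NC and 22.0, 21.5 and 21.9 FPKM in si-STRIP2. Its groups did not overlap, but its call (log2 fold change 0.10, edgeR adjusted p = 0.046) was lost under 12 of 16 alternatives, among them every fit that left out a library.

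PSME3 encodes the nuclear activator PA28 gamma, which opens the core without ubiquitin or ATP (ENSG00000131467, chromosome 17, 42824385 to 42843760, plus strand). It had 47.7, 48.7 and 43.9 FPKM in si-NC and 35.4, 36.6 and 38.4 FPKM in si-STRIP2. Every si-STRIP2 library lay below every control (46.8 ± 2.55 and 36.8 ± 1.52 FPKM, SD, n = 3; log2 fold change -0.35 ± 0.044 SE, edgeR adjusted p = 2.73e-08). Its fall beyond 1.2-fold was lost without si-NC 1, si-NC 2, si-STRIP2 1 or si-STRIP2 2 and with no filter on low counts. PSME4, the nuclear activator PA200, fell from 12.5, 13.4 and 13.01 FPKM to 11.8, 11.4 and 12.0 FPKM, again with no overlap (log2 fold change -0.15, edgeR adjusted p = 0.00311). PSMF1, which encodes the inhibitor PI31, was not called (10.4, 9.81 and 10.35 FPKM against 9.84, 9.34 and 10.1 FPKM; log2 fold change -0.065, edgeR adjusted p = 0.223).

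Levels per exonic length also differed by role in si-NC. The median FPKM was 85.0 for the constitutive beta genes, 26.5 for the alpha genes, 26.5 for the ATPases, 26.6 for the lid, 6.92 for the PSMG genes and 0.687 for the immunoproteasome genes. In si-STRIP2 the same medians were 91.45, 32.2, 30.8, 29.3, 8.12 and 0.5. The alpha median is taken over all 8 genes and is lowered by PSMA8, at 0 FPKM, and by PSMA2, whose level is uncertain. The chaperone transcripts PSMG2 and PSMG4 are low in part by the size they were divided by: the deposited size of PSMG2, 12490 bases, is 7.41 times its principal transcript, and by principal transcript the si-NC levels were 30.1 for PSMG2 and 7.32 for PSMG4. By that scale PSMB8 was at 0.555, PSMB9 at 2.92 and PSMB10 at 1.24, still far below the constitutive beta genes. The principal-transcript scale was added after the values were seen. A fold change between groups does not depend on the length. Over the 30 tested genes whose principal transcript shares no base with another gene, the median log2 fold change was 0.16. Of these, 20 were higher (66.7%, against 27.8% of all tested genes) and 3 lower (10.0%, against 27.0%).

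Genes that control or serve the proteasome were compared through 4 lists of 42 genes in all, of which 11 (26.2%) were higher and 23 (54.8%) lower, against 27.8% and 27.0% of all tested genes. Most genes in the list of transcription control were lower. NFE2L1, the factor named above, fell from 72.9, 72.7 and 71.7 FPKM to 39.9, 43.25 and 40.0 FPKM, with no overlap (72.4 ± 0.603 and 41.0 ± 1.92 FPKM, SD, n = 3; log2 fold change -0.82 ± 0.041 SE, edgeR adjusted p = 9.28e-18). The related factor NFE2L2 fell from 18.4, 19.5 and 17.65 FPKM to 12.8, 12.99 and 12.5 FPKM (log2 fold change -0.54, edgeR adjusted p = 2.99e-13). DDI2, the protease that cleaves NFE2L1 into its active form, and NRDC fell by 0.15 each on the log2 scale, and NGLY1, which strips its sugars, rose by 0.20 (edgeR adjusted p = 0.00171). In all, 4 of the 5 were lower and 1 higher. Transcript levels do not show how much active NFE2L1 protein was present, and that was not measured here.

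The antioxidant response element core TGACNNNGC, on either strand, was found in windows of 15 of the 42 matched proteasome genes. That is 29.4% of their 51 windows, 14.5% of the windows of tested genes and 13.3% of all windows. Of the 22 genes called higher that had a window, 10 held it, beside 15 of all 42 matched genes. Whether the element goes with the rise was not tested. Sites of PSMA4, PSMB3, PSMD3, PSMD12 and PSMG1 are shown as examples from 5 roles or loci among genes that rose, with the core in capitals and 10 bases on either side. They are at chr15:78540650-78540678 (plus strand), chr17:38752627-38752655 (plus), chr17:39980760-39980788 (plus), chr17:67366724-67366752 (minus) and chr21:39183616-39183644 (minus), in RefSeq on GRCh38.p14.
PSMA4: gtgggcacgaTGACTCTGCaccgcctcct
PSMB3: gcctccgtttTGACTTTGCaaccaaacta
PSMD3: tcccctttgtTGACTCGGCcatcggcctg
PSMD12: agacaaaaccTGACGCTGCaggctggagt
PSMG1: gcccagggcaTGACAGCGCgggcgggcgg
The core also occurs in PSMD9 and PSME4, which fell, and in PSMB9, PSMC5 and PSMD5, which were not called. PSME1 and PSME2, named above for the interferon element, hold it as well, and the window of PSMC3 does not.

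Partners of the proteasome outside the name rule were called in both directions: 6 of 13 fell (46.2%, against 27.0% of all tested genes), 3 rose (23.1%, against 27.8%) and 4 were not called. ZFAND2A and ZFAND5, zinc finger proteins that bind the proteasome, fell from 6.07, 6.28 and 5.84 FPKM to 4.18, 4.29 and 3.92 FPKM (log2 fold change -0.56, edgeR adjusted p = 5.89e-06) and from 39.1, 41.1 and 38.5 FPKM to 32.2, 30.7 and 31.1 FPKM (log2 fold change -0.34, edgeR adjusted p = 6.51e-09). PAAF1, which binds the base ATPases, rose from 1.29, 1.56 and 1.29 FPKM to 1.77, 1.80 and 1.85 FPKM (log2 fold change 0.39, edgeR adjusted p = 7.01e-04). The deubiquitinases of the regulatory particle, USP14 and UCHL5, fell by 0.17 and 0.15 on the log2 scale, whereas SEM1, a small lid subunit, and ADRM1, a ubiquitin receptor, rose by 0.17 and 0.16.

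In the list of ubiquitin supply and delivery 7 of 13 genes rose (53.8%, against 27.8% of all tested genes) and 4 fell (30.8%, against 27.0%). VCP, the segregase that extracts tagged proteins, rose from 16.1, 16.1 and 15.8 FPKM to 24.5, 25.7 and 24.4 FPKM (log2 fold change 0.63 ± 0.040 SE, edgeR adjusted p = 3.00e-15). UBA1, the main ubiquitin-activating enzyme, rose from 32.2, 30.7 and 31.1 FPKM to 48.0, 50.0 and 48.1 FPKM (log2 fold change 0.63 ± 0.040 SE, edgeR adjusted p = 4.02e-15). Both changes are larger than that of PSMC3, the largest among the proteasome genes. UBQLN1, a shuttle that carries tagged proteins to the proteasome, fell from 53.0, 53.6 and 50.1 FPKM to 39.4, 39.9 and 40.6 FPKM (log2 fold change -0.39, edgeR adjusted p = 4.44e-10). The groups of all 3 genes were apart.

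The last list was that of interferon-inducible peptide presentation, which uses the peptides that proteasomes make. Of its 11 genes, 9 were lower (81.8%, against 27.0% of all tested genes) and none was higher (against 27.8%). B2M, the light chain of HLA class I, fell from 146.6, 146.0 and 137.2 FPKM to 95.5, 95.4 and 99.1 FPKM (log2 fold change -0.57, edgeR adjusted p = 9.17e-14). ERAP1, an aminopeptidase that trims peptides in the endoplasmic reticulum, fell from 2.33, 2.62 and 2.55 FPKM to 1.98, 1.69 and 2.13 FPKM (log2 fold change -0.37, edgeR adjusted p = 4.28e-04). In both genes the groups did not overlap. HLA-B fell by 0.52 on the log2 scale, though reads of near-identical HLA genes can be split between rows. PSME1, whose window holds the interferon element shown above and also an antioxidant response element core, rose in the same libraries. Whether either element bears on its level was not tested. Of the interferon-inducible catalytic subunits, PSMB9 and PSMB10 were not called and PSMB8, which the filter left out, was called lower in 2 of the 5 alternative fits that tested it.

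**Figure D4:**
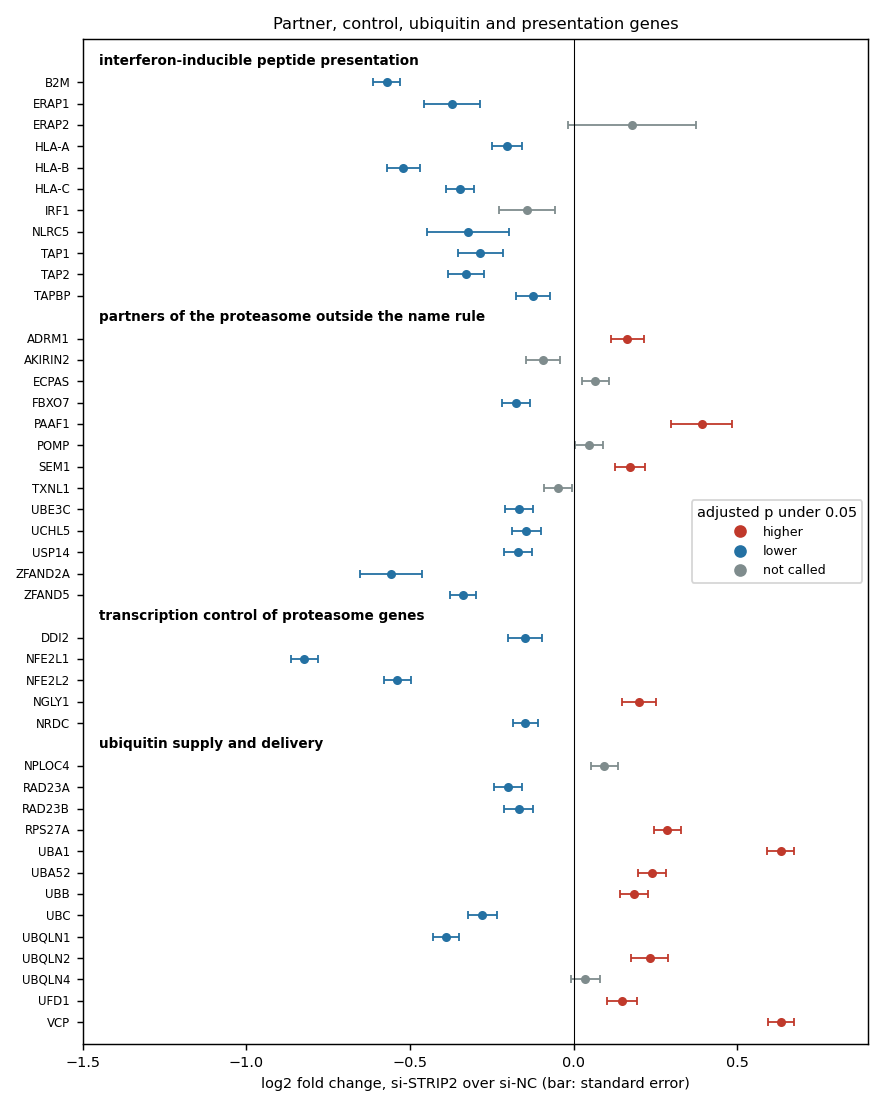
Log2 fold change of si-STRIP2 over si-NC (x axis) with its standard error for the 42 genes of the 4 lists outside the name rule (y axis), with colour for the edgeR call. NFE2L1 has the lowest value (-0.82), VCP and UBA1 the highest (0.63), and 9 of the 11 peptide presentation genes are lower.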

How the data were processed

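RNA-seq of 3 si-NC and 3 si-STRIP2 libraries was used. The authors deposited raw counts, FPKM and an exonic size (other) for 61806 genes, per the file headers. Per the submitters' processing notes, the tools included HISAT2 2.2.1, HTSeq 0.6.1 and cutadapt 1.9.1, with GRCh38.p13. Neither the annotation release nor whether reads were counted by strand is stated: both are not given in the sources used here. Deposited FPKM differed from counts scaled by size and library total by at most 0.005.

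Counts were tested over all genes with edgeR 4.0.16 in R 4.3.3: filterByExpr (minimum count 10), TMM, group as the only term, the 2-sided quasi-likelihood F test and Benjamini-Hochberg adjustment over 15687 genes, called at 0.05. The SE was derived from F (absolute log2 fold change over its square root). glmTreat tested a 1.2-fold margin. The scripts were tested on simulated data. Alternatives used DESeq2 1.42.0, limma 3.58.1, other scalings, other filters, a replicate block and fits leaving out each library.

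The members and lists were chosen with earlier results of these data known. Named genes are STRIP2, LCN2, every immunoproteasome, PSME, PSMF and PSMG gene, the extremes of each other role, and the 3 largest changes of each list; others named are further members or illustrate a count and were chosen after their values were seen. GENCODE 29 gave principal transcripts and overlaps, and RefSeq gave promoters for 42 of 48 genes, without PSMA7, PSMB1, PSMB6, PSMB7, PSMD4 and PSMG3. Protein sequences were not analysed here, and 1 gene of the lists is not reported here. Intervals for 0 counts cover counting error only.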

Additional observations from a re-analysis of the deposited data

How the results depend on the processing

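Of the 26 proteasome genes called higher, 21 were called so under each alternative except the 1.2-fold margin, and of the 5 called lower, 3 were (PSMB6, PSME3 and PSME4). The counts were 22 higher and 5 lower with DESeq2, 25 and 5 with RLE scaling, 28 and 5 with upper-quartile scaling, 26 and 5 with library totals alone, 23 and 5 with no filter or with a filter of mean FPKM at least 1, and 22 and 4 with limma. Against the 1.2-fold margin, 1 proteasome gene was higher and 1 lower, and of the list genes 2 were higher and 8 lower (11 and 23 without the margin). With that margin and no filter on low counts, 0 were lower. Leaving out 1 library gave 22 to 25 higher and 3 to 7 lower, with 3 without si-NC 1 (PSMB2 and PSMD9 lost) and 7 without si-NC 3 (PSMA6 and PSMB8 gained), and beyond 1.2-fold 1 to 2 higher and 0 to 1 lower. The median log2 fold change of the proteasome genes ran from 0.11 to 0.17, while that of all genes ran from 0.0069 to 0.046.

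PSMA2, never called, changed sign with library totals alone (log2 fold change 0.0042) and without si-NC 1 (0.042), si-STRIP2 1 (0.037) or si-STRIP2 3 (0.050), over a leave-one-out range of -0.0871 to 0.0502. PSMB7, not called, ran from -0.0070 without si-NC 3 to 0.0936 without si-NC 2. The cause was not tested. The replicate block gave 25 higher and 5 lower, losing PSME2 (edgeR adjusted p = 0.0839). The numbers were not taken as pairs because the labels do not say that they pair cultures. As a check, libraries with the same number did not deviate together (correlations of -0.0858, -0.0133 and -0.0718). The immunoproteasome genes had at most 52 counts in a library, which limits the precision of their fold changes. The protein comparison of exchanged subunits was not run.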
